A study of Mus musculus with 3 samples.

Results

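The genes with symbols from Zfp900 to Zfp999 are a stretch of mouse zinc finger genes that were named by number, and 63 of them were autosomal and protein-coding in the GENCODE vM21 annotation of mm10, out of 20807 autosomal protein-coding genes. They were chosen by symbol alone, and genes without a peak were kept. H3K4me3 ChIP-seq was performed on whole adult testis of (C57BL/6J x CAST/Eij)F1 males that carried the Humanized/CAST genotype at Prdm9, with 2 ChIP libraries, made with the antibody Abcam ab8580, and 1 input library without antibody. The Humanized allele encodes the DNA-binding zinc finger array of human PRDM9 in place of the mouse array. All libraries share this genotype and no condition was varied, so the data describe where H3K4me3 lay and allow no comparison between treatments. The series' own description names both testes of a single male as the source, whereas the study's methods name littermates with a testis each. If the former holds, the spread between replicates is technical. Whole testis holds germ cells of all stages with somatic cells, and more cells with the mark and more mark per cell cannot be told apart.

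Most zinc finger genes of this kind encode proteins with a KRAB domain at one end and a row of C2H2 zinc fingers at the other. The fingers bind DNA, often within transposable elements, and the KRAB domain recruits the corepressor TRIM28 (KAP1), which brings the histone methyltransferase SETDB1 and heterochromatin proteins. The genes lie in tandem clusters that expanded separately in rodents and primates, so neighbours can be near-identical copies. H3K4me3 marks active and poised promoters. In spermatocytes PRDM9, itself a zinc finger protein with a KRAB-like domain, adds the same mark at recombination hotspots.

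Longest proteins translated from the annotation placed most of the 63 genes in this class. A KRAB A-box pattern was found in 56 of them (88.9%), against 123 of the 295 genes from Zfp1 to Zfp899 (41.7%). The pattern was fixed as DV, 3 residues, F, 3 residues and EW. KRAB domains that differ from it were not counted, so these shares are matches to the pattern and not the content of KRAB domains. The number of C2H2 fingers (2 cysteines and 2 histidines at the usual spacing) had a median of 11 and reached 21, in Zfp974. No finger matched the pattern in 3 models, namely Zfp935, Zfp957 and Zfp972. The models ran from 139 residues in Zfp972 to 794 in Zfp945.

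The sequences before the starts show the range of promoters in the group. RefSeq promoters of mm10 (GRCm38.p6), from 250 bases before to 50 after a start, matched 53 of the 63 genes. They are shown here without any annotated exon and in the direction of transcription, for the gene pair with the highest H3K4me3 enrichment, for a gene with all of the motifs below, for near-identical copies on chromosome 2 with and without a peak, for neighbours on chromosome 4 with a weak and a stronger peak, and for a gene with unique sequence and no peak. Capitals mark the CCAAT box (CCAAT), the ETS core (CCGGAA) and the GC box (GGGCGG) on either strand, of which the reverse CCAAT box and the GC box can overlap. Zfp942 and Zfp943 start 88 bp apart on opposite strands, and the first sequence is what lies between them.
Zfp942, chr17:21962465-21962551, minus strand: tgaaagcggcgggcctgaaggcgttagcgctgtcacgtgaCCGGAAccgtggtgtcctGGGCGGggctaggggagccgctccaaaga
Zfp994, chr17:22225617-22225814, minus strand: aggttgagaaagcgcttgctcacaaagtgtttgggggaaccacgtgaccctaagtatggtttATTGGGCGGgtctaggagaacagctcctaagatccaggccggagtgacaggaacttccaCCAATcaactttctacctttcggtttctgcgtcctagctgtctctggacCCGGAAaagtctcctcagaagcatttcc
Zfp967, chr2:176520804-176521003, plus strand: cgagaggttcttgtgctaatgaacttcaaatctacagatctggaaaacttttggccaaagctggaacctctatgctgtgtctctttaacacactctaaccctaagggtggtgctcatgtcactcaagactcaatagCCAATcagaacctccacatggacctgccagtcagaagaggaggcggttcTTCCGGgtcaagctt
Zfp965, chr2:175469825-175469984, plus strand: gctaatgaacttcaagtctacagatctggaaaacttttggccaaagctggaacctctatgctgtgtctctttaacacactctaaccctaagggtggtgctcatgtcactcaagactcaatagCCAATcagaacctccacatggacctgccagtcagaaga
Zfp971, chr2:178023084-178023283, plus strand: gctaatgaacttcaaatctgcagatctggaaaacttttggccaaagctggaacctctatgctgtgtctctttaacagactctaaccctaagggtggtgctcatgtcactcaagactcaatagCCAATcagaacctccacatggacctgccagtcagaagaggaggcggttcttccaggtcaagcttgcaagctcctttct
Zfp985, chr4:147553077-147553276, plus strand: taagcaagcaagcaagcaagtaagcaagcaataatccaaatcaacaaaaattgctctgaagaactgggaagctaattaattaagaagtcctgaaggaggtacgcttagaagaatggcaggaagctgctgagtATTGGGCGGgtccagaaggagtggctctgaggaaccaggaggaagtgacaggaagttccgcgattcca
Zfp984, chr4:147809841-147809988, minus strand: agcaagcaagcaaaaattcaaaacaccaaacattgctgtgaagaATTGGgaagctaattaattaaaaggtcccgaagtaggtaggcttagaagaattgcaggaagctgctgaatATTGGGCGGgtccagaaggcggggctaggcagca
Zfp957, chr14:79247370-79247567, minus strand: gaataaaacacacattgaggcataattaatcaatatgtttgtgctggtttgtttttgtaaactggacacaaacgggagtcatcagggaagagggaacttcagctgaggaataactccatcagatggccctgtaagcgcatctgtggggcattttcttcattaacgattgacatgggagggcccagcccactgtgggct

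Over the 300 bases of each RefSeq promoter, the CCAAT box occurred in 46 of 60 promoters of the 53 genes (76.7%), against 37.5% of 19174 promoters of all autosomal protein-coding genes and 41.1% of those of Zfp1 to Zfp899. The ETS core, the binding core of ETS family activators, occurred in 50% of them, against 19.5% of all promoters and 33.3% in Zfp1 to Zfp899. The GC box, bound by SP1-type factors, was in 31.7%, against 48.3% of all and 46.1% in Zfp1 to Zfp899. The TATA box (TATAAA) occurred in 0 of 60, against 12.1% of all and 8.08% in Zfp1 to Zfp899. The part of the ZNF143 motif searched (ACTACAA) was in 1.67%, against 3.76% and 7.07%. The YY1 core (GATGGC) was in 6.67%, against 13.7% and 17.2%, and the NRF1 motif (TGCGCA) in 1.67%, against 10% and 12.5%. These matches are letters in a window and not sites, and near-identical copies were counted separately. Promoters were matched by symbol, so some do not lie at the starts used for peaks. The RefSeq start of Zfp993 was 146512849, where the annotated gene began at 146610961. That of Zfp935 was 62466812, where the annotated start was 62558511. The promoters were also poorer in CpG, with a median of 7.5 CpG per 300 bases (interquartile range 5 to 10.2) against 14 over all promoters and 16 in Zfp1 to Zfp899.

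Of the 63 genes, 52 (82.5%) had a narrow H3K4me3 peak with its centre within 1 kb of a transcript start, where 77.3% of all autosomal protein-coding genes did. The corresponding share in Zfp1 to Zfp899 was 95.9% (283 of 295). A broad peak was present at the same number of starts, 52, beside a background of 80.1%. Each narrow peak carries an enrichment, which is the authors' estimate of the signal above local background, in units of that background, from both replicates and the input. On this scale 0 means none, so values between 0 and 1 lie above background too. The strongest start peak of each gene is used here. Its median was 23.9 (interquartile range 8.83 to 39.5, 52 genes), against 41.8 (24.7 to 63.9) in Zfp1 to Zfp899 and 38.3 (14.7 to 65.8) over all genes with a peak. At the median peak, replicate 1 had 314 fragments, replicate 2 had 360 and the input 15, where the medians over all genes were 751, 821 and 19. These are descriptions of jointly called peaks and were not tested.

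**Figure D1:**
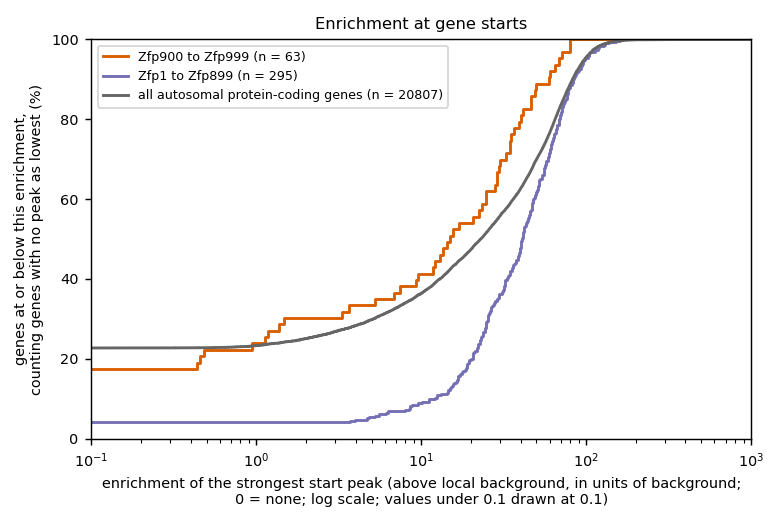
Cumulative share of genes (vertical axis, %) at or below each enrichment of the strongest start peak (horizontal axis, above local background in units of background, log scale), with genes without a narrow peak counted as lowest. The line of Zfp900 to Zfp999 starts at 17.5% without a peak, that of Zfp1 to Zfp899 at 4.07% and that of all genes at 22.7%.

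A peak was called PRDM9-independent when its centre lay inside a deposited region that holds H3K4me3 peaks shared by mice with different Prdm9 alleles, and PRDM9-dependent otherwise. By that rule 41 of the 63 genes (65.1%) had a PRDM9-independent peak at a start, where 71.4% of all genes did, and 13 (20.6%) had a PRDM9-dependent one there, where 14.7% of all genes did. The count of 13 fell to 7 without replicate 2 or with a deposited p under 1e-10, and to 6 where both replicates had to exceed the input. The share over all genes was not recomputed under these settings, so the 13 genes are not shown to exceed it. In Zfp1 to Zfp899 the shares were 93.6% and 10.5%. All 41 genes whose strongest start peak was PRDM9-independent had more fragments in both ChIP replicates than in the input. Of the 11 genes whose strongest start peak was PRDM9-dependent, 4 did. The matching shares over all genes are not given, so these counts are not shown to be particular to the set.

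Most of the 63 genes lay close to others of the set. When genes closer than 2 Mb were joined, 47 fell into 7 groups and 16 stood alone. The largest groups were 16 genes on chromosome 4 (mm10, 145510759 to 147848366), 10 on chromosome 2 (175372436 to 178078476) and 10 on chromosome 17 (21567008 to 22867134). The H3K4me3 map differed between them. All 10 genes of the chromosome 17 group had a PRDM9-independent start peak, with enrichments of 7.46 to 79.4 and a median of 40.5. In the chromosome 2 group 6 of 10 genes had no narrow peak, 3 had a PRDM9-independent and 1 a PRDM9-dependent one. In the chromosome 4 group 4 of 16 had none, 2 had a PRDM9-independent and 10 a PRDM9-dependent one as the strongest, and the median enrichment over the 12 peaks was 1.27. Outside the groups on chromosomes 2 and 4, 36 of 37 genes had a PRDM9-independent start peak, with enrichments of 7.46 to 79.4 and a median of 31.4.

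The highest enrichment was at the promoter shared by Zfp942 and Zfp943, where replicate 1 had 1129 fragments, replicate 2 had 1236 and the input 14 at position 21962720 of chromosome 17, an enrichment of 79.4. A single peak serves both genes, so it cannot be assigned to either. Zfp994, in the same group, had fewer fragments (398, 514 and 6) at an enrichment of 71.4, which rests on 6 input fragments. Zfp958 on chromosome 8 had 1167, 1294 and 17 fragments and an enrichment of 68, and Zfp953 on chromosome 13 had 724, 931 and 12 and an enrichment of 64.8.

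The remaining genes of the 10 strongest lay on several chromosomes. Zfp949 on chromosome 9 had 1211, 1369 and 20 fragments (enrichment 60.6). Zfp933 had 817, 961 and 14 fragments (59.7), and it is the gene at the distal edge of the chromosome 4 group, whose other peaks had enrichments of at most 6.82. Zfp944 on chromosome 17 had 839, 949 and 17 fragments (49.4), but its start lies 53 bp from that of Zfp758 on the opposite strand. Zfp961 on chromosome 8 had 821, 841 and 16 fragments (48.8), and Zfp956 on chromosome 6 had 1123, 1242 and 24 (46.3). These genes were ranked by enrichment, which is fitted from the same fragments, so ChIP counts well above the input follow from that choice.

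**Figure D2:**
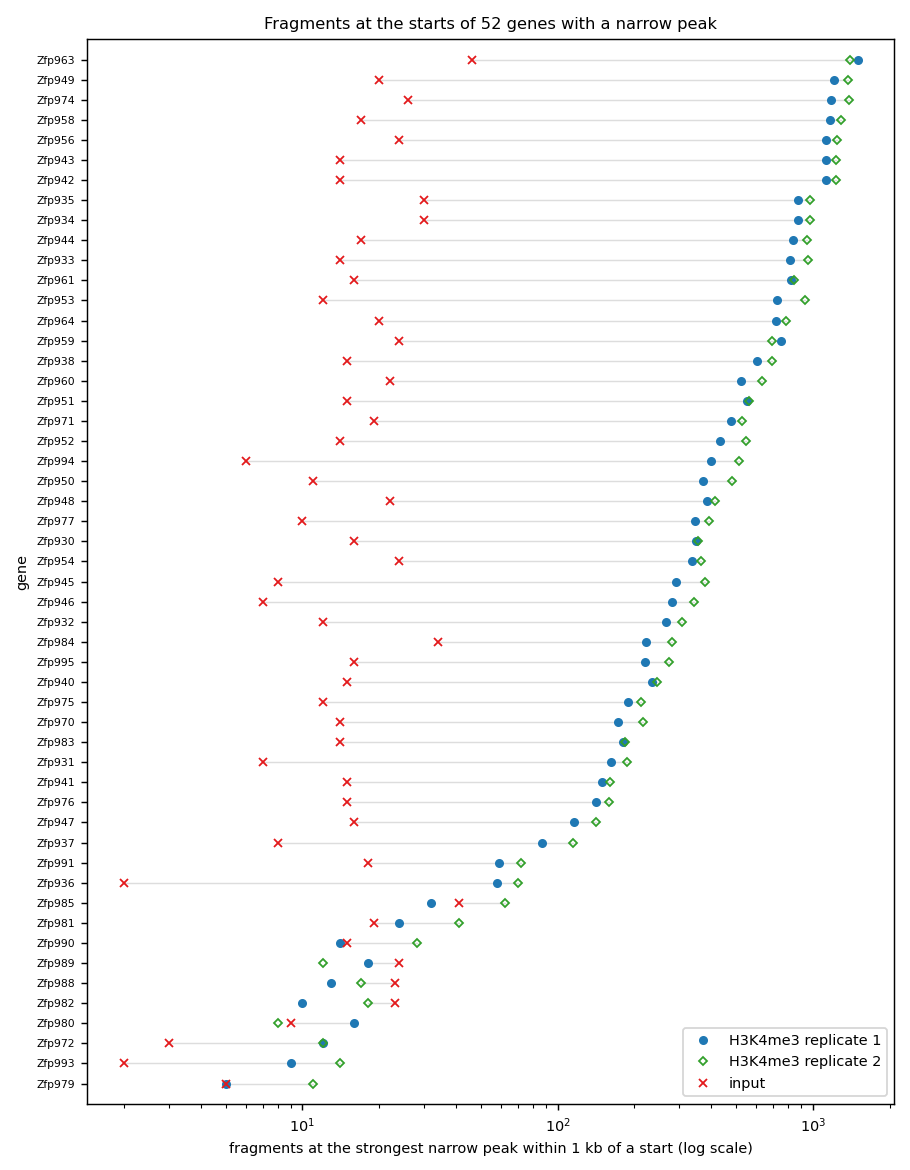
Fragments at the strongest start peak of each of the 52 genes with a narrow peak (horizontal axis, log scale), ordered by the sum of the ChIP replicates. Filled circles are replicate 1, open diamonds replicate 2 and crosses the input. The crosses lie left of both ChIP symbols from Zfp936 upwards and mix with them among the lowest genes.

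In the deepest peaks the replicates lay close together, and replicate 1 had fewer fragments than replicate 2 at 47 of 52 genes. The ratio of replicate 1 to replicate 2 had a median of 0.875, where the totals over all 101978 narrow peaks gave 0.923. The share of all narrow peaks with fewer fragments in replicate 1 is not given, so the 47 are not shown to be particular to the set. Among the genes with a PRDM9-independent peak it ran from 0.757 to 1.08. An exact two-sided binomial test of the replicate shares at every narrow peak, with Benjamini-Hochberg adjustment, called 0.773% of all narrow peaks and 1 of the 50 distinct peaks that were strongest at a start, that of Zfp963 on chromosome 8. Replicate 1 had 1499 fragments there, replicate 2 had 1392 and the input 46, a ratio of 1.08 and an adjusted exact binomial p of 0.0089. The call compares 2 libraries and was lost when the noise was scaled to the dispersion of 1.51 over all narrow peaks.

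The 10 genes of the chromosome 2 group divided into 6 without a peak and 4 with a peak. Zfp965, Zfp966, Zfp967, Zfp968, Zfp969 and Zfp973 had neither a narrow nor a broad peak at any start, and no PRDM9-independent region either. In each of them 0% of the 51-base words within 1 kb of a start occurred only once in mm10. The RefSeq promoters of Zfp966 and Zfp967 were identical over 300 bases, and those of Zfp968 and Zfp973 matched at 299.

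Zfp971 had 476 and 526 ChIP fragments over 19 in the input (enrichment 24.7) in a promoter that matched that of Zfp965 at 291 of 300 bases. Of its start words 41.2% were unique. Zfp931 had 162, 187 and 7 fragments (23.3) with 19.6% unique words, and Zfp970 had 173, 217 and 14 (13) with 22.8%. Zfp972, with 29.1% unique words, had 12 fragments in each replicate and 3 in the input (3.63), at a PRDM9-dependent peak 4 bp from its start. The study's filter removed read pairs in which neither read could be placed with confidence, so fragments from identical copies could go uncounted. The part of this filter in the absent peaks was not tested, and an absent peak here is no measure of absent H3K4me3.

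The chromosome 4 group had peaks at most starts, but weak ones. At Zfp989 there were 18 and 12 ChIP fragments and 24 in the input (enrichment 0.455), at Zfp988 13, 17 and 23 (0.481) and at Zfp982 10, 18 and 23 (0.44). In these genes the input exceeded both ChIP libraries in raw fragments, which are not scaled for library size. Zfp985 had 32, 62 and 41 fragments (0.946), Zfp980 16, 8 and 9 (1.12), Zfp990 14, 28 and 15 (1.18) and Zfp979 5, 11 and 5 (1.37). In these 4 genes the input lay between the ChIP libraries or equalled the lower of them.

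The remaining peaks of this group stood above the input in both libraries. Zfp981 had 24, 41 and 19 fragments at 1 start (1.48) and 11, 11 and 7 at another (1.35). Zfp993 had 9 and 14 fragments over 2 (5.28), and Zfp991 had 59 and 72 over 18 (3.29), the lowest enrichment among the PRDM9-independent peaks. Zfp984 had 221 and 281 over 34 (6.82), and 26 and 15 over 10 (1.8) at a further start. Its larger peak counts as PRDM9-dependent only because its centre lies outside a PRDM9-independent region that the 1700 bp broad peak around it overlaps, and its start is 52 bp from that of the noncoding RNA Gm20707. Zfp978, Zfp986, Zfp987 and Zfp992 had no peak.

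The median input at the 12 start peaks of the chromosome 4 group was 18.5 fragments, against 15 at the 36 genes with a start peak outside the groups on chromosomes 2 and 4. The share of unique words at these starts ran from 4.07% to 99.5% with a median of 30.6%, and the top value was that of Zfp933, which had the strong peak. The order of enrichment did not follow uniqueness throughout the group. Zfp982 (72.4% unique), Zfp984 (72.9%) and Zfp985 (75%) had similar shares and enrichments of 0.44, 6.82 and 0.946. Their PRDM9-dependent label means only that no shared region covers them, and it was not tested whether PRDM9 made these marks.

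**Figure D3:**
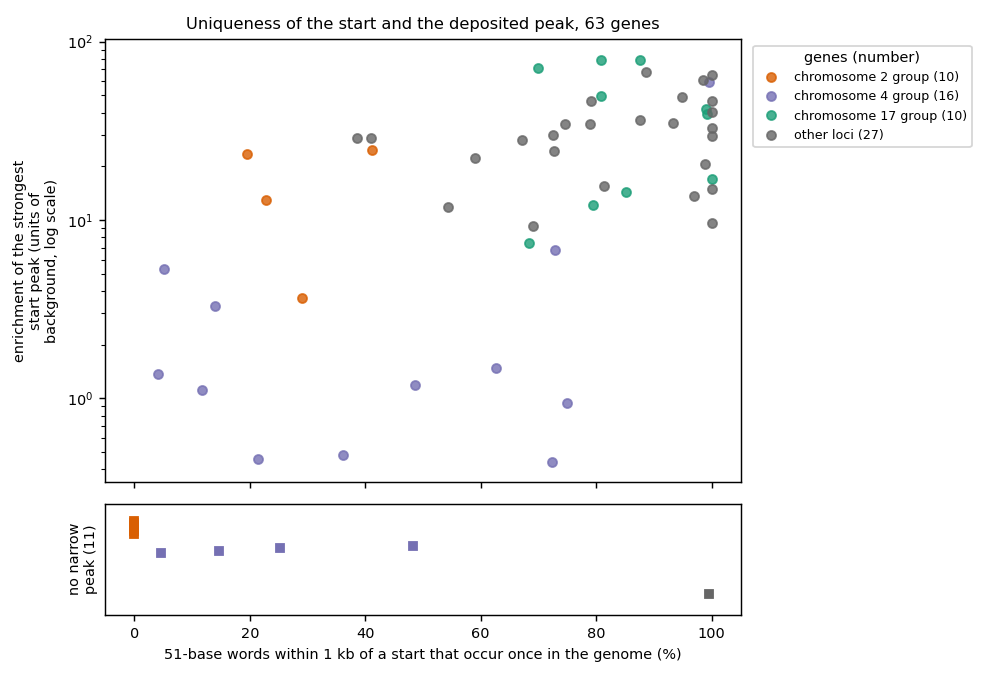
Enrichment of the strongest start peak (upper panel, in units of background, log scale) against the share of 51-base words within 1 kb of the starts that occur once in the genome (%), with the genes without a narrow peak in the lower panel, where height only separates the points. The colours are the 3 largest groups and the other loci, and 6 genes of the chromosome 2 group stand at 0% without a peak.

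Over all 63 genes the median share of unique start words was 72.5%, against 98.8% in Zfp1 to Zfp899. Of 23 genes with under 50% unique words, 10 had no narrow peak, 6 had a PRDM9-independent and 7 a PRDM9-dependent one, and the median enrichment was 3.63. Of 40 genes with 50% or more, 1 had none and 35 had a PRDM9-independent peak, with a median of 30. Across the 52 genes with a peak, enrichment and unique share had a Spearman rho of 0.57. Genes of a cluster share sequence and position, so this is given as a description without a test. In Zfp1 to Zfp899 only 5 of 295 genes were under 50%, and 2 of these 5 had no narrow peak. Of the other 290 genes, 10 had none. Over the genes with a peak, the median enrichment was 15.1 under 50% and 42 at or above it, the former from very few genes.

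Zfp957 on chromosome 14 was the only gene without a peak whose start was mostly unique. Its start words were 99.5% unique, no narrow or broad peak lay within 1 kb of any start, and its protein model held neither the KRAB pattern nor a C2H2 finger. The sequence shown above for it held none of the 3 marked motifs and 3 CpG. A single PRDM9-dependent peak lay in an intron, 4775 bp from the nearest start, with 13 and 21 ChIP fragments over 7 (enrichment 2.15).

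Among the genes outside the groups on chromosomes 2 and 4, the weakest start peaks still stood clear of the input. Zfp947 on chromosome 17 had 116, 142 and 16 fragments (7.46), Zfp976 on chromosome 7 had 141, 159 and 15 (9.28) and Zfp941 on the same chromosome had 149, 160 and 15 (9.57). Zfp936, also on chromosome 7, had peaks at 3 starts. The one with the highest enrichment (30) had 58, 70 and only 2 fragments, and the deepest had 477, 583 and 20 (24.8). The third, 649 bp before a start, was PRDM9-dependent and had 102, 140 and 8 fragments (14.1).

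Start peaks sat just inside the genes. The centre lay downstream of the nearest start in 47 of 52 genes and upstream in 5, and within 300 bp of it in 51. Shares over all genes are not given for these counts, so they are not shown to be particular to the set. The median distance was 129 bp, against 167 bp over all genes. Zfp934 and Zfp935 on chromosome 13 have a start in common, with 871, 971 and 30 fragments at it (28.8), and Zfp934 had a small PRDM9-dependent peak of 6, 4 and 1 fragments (4.58) at another. Starts of noncoding, antisense or other genes lay within 1 kb of those of Zfp930, Zfp932, Zfp940, Zfp953, Zfp954, Zfp974, Zfp982 and Zfp983 as well, so their peaks cannot be assigned to the zinc finger gene alone.

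Broad peaks at these starts were short. Their median width was 1650 bp, against 2900 bp in Zfp1 to Zfp899 and 3300 bp over all genes with a broad peak. Fragments from repeated sequence could go uncounted at these starts, and the part of this in the widths was not tested. The widest was that of Zfp974 on chromosome 7 at 10300 bp, a gene with 1176, 1385 and 26 fragments (46.2) whose start lies 213 bp from the antisense gene Gm26891. It was followed by Zfp944 with 7000 bp, Zfp949 with 6100 bp, Zfp933 with 5700 bp and the pair Zfp942 and Zfp943 with 4500 bp. The median was 550 bp over the 12 broad peaks of the chromosome 4 group, which ran from 100 bp at Zfp988 and Zfp989 to the 5700 bp of Zfp933.

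**Figure D4:**
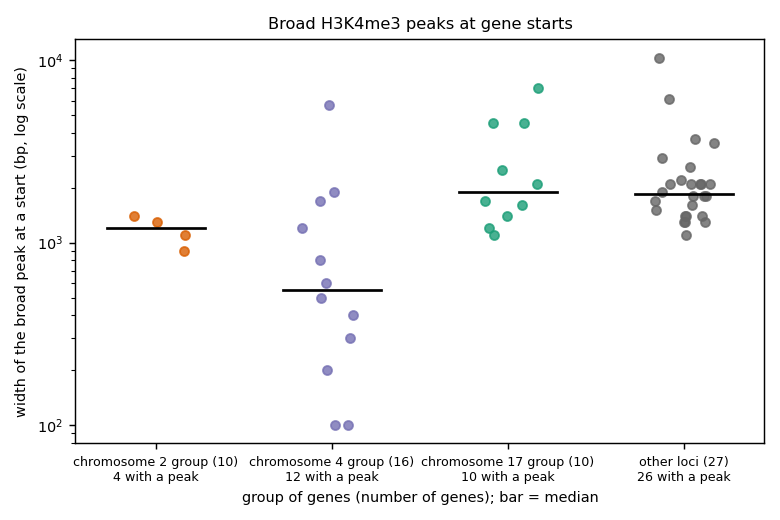
Width of the broad peak at a start (vertical axis, bp, log scale) in the 3 largest groups and the other loci, with 1 point per gene, horizontal scatter added for legibility and a bar at the median. The medians were 1200 bp on chromosome 2, 550 bp on chromosome 4, 1900 bp on chromosome 17 and 1850 bp elsewhere.

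Within the gene bodies, 26 of the 63 genes (41.3%) held at least 1 PRDM9-dependent narrow peak, beside 48.9% of all genes. Together these were 42 peaks in 1782.6 kb, or 2.36 per 100 kb, against 2.92 over all genes and 3.44 in Zfp1 to Zfp899. The share of unique words in the gene bodies had a median of 69% in the 63 genes, against 96.8% in Zfp1 to Zfp899. It is not given for all genes. Fragments from repeated sequence could go uncounted here as at the starts, and the part of this in the lower density was not tested. With a deposited p under 1e-10 the density of the 63 genes was 1.57 per 100 kb. Of the 42, 12 lay within 1 kb of a start. The other 30 lay in introns in 28 cases, in a coding exon in 1 (Zfp959) and in an untranslated exon in 1 (Zfp975). Neither the share over all genes nor the intron share of the gene bodies is given, so the 28 are not shown to be particular to the set. These 30 had a median enrichment of 2.5 and medians of 13.5 and 17 ChIP fragments over 6, which were close to the medians over all 60913 autosomal PRDM9-dependent peaks of 2.69 and of 15, 18 and 6 fragments. Both ChIP libraries exceeded the input at 29 of the 30, a count for which no share over all PRDM9-dependent peaks is given.

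The genes with the most such peaks were Zfp934 with 5 and Zfp935, Zfp942 and Zfp943 with 4 each, while Zfp950 and Zfp984 had 3. Zfp934 and Zfp935 overlap and share 4 of these peaks. Zfp936, Zfp959 and Zfp982 had 2 each. Away from the starts, the strongest peaks were in an intron of Zfp930 (15 and 23 fragments over 2, enrichment 8.81), in an intron of Zfp946 (39 and 30 over 4, 7.99), in the coding exon of Zfp959 (4 and 10 over 1, 6.46) and in introns of Zfp950 (38 and 34 over 6, 5.52, and 20 and 15 over 3, 5.36). The enrichments for Zfp930 and Zfp959 rest on 2 and 1 input fragments.

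The sequences at the centres of the strongest intron peaks, including that of Zfp936 near its start, are shown on the plus strand of mm10 with the deposited centre base in capitals.
Zfp936, chr7:43186471-43186571, plus strand: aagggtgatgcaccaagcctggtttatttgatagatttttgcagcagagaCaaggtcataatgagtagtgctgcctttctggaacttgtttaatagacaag
Zfp930, chr8:69221474-69221574, plus strand: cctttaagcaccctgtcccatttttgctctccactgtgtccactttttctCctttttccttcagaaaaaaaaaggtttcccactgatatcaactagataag
Zfp946, chr17:22436009-22436109, plus strand: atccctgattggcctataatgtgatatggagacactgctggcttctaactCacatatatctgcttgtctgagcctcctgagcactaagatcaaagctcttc

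**Figure D5:**
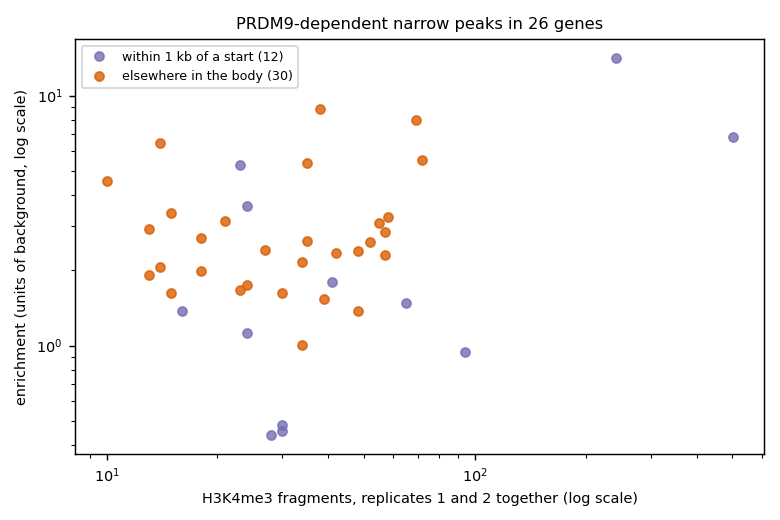
Enrichment (vertical axis, in units of background, log scale) against ChIP fragments of both replicates together (horizontal axis, log scale) for the 42 PRDM9-dependent narrow peaks in the gene bodies, 12 within 1 kb of a start and 30 elsewhere. The point at 14.1 is the peak of Zfp936 and the one furthest right that of Zfp984.

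Genes whose products act with KRAB zinc finger proteins were described beside them. All 18 of these partner genes had a PRDM9-independent start peak, where 71.4% of all genes did, with enrichments of 31 to 178. Their median was 73.8, against 38.3 over all genes with a narrow peak. The range overlaps that of the zinc finger genes, the list was chosen with results known, and the difference was not tested. Trim28, the corepressor itself, had 2060, 2236 and 17 fragments (119), Cbx3, which encodes the heterochromatin protein HP1 gamma, had 2006, 2332 and 12 (170), and the methyltransferase gene Setdb1 had 1012, 1012 and 17 (55.9). The lowest was Atf7ip, a partner of SETDB1, with 614, 707 and 20 (31).

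Markers of the tissue were described too, beside the 77.3% of all autosomal protein-coding genes with a narrow start peak. All 8 germ cell genes had a narrow start peak, with enrichments of 9.43 to 113, 3 of 4 Sertoli genes had one (11 to 17.5) and 3 of 4 Leydig genes (4.36 to 11.6). The Sertoli and Leydig counts do not exceed the share over all genes, so they do not set these markers apart. Median enrichments were 55.3, 15.4 and 10.3 in this order, against 38.3 over all genes with a narrow peak. Amh, a Sertoli gene, had a broad peak of 4600 bp without a narrow one, and the Leydig gene Hsd3b1 had neither. Of 8 genes of other tissues 4 had a narrow peak, at 1.46 to 6.66, which overlaps the Leydig range. Myh6, also of other tissues, had only a broad one, of 500 bp. Summed over all narrow peaks, the libraries held 17621116, 19094837 and 1250138 fragments in replicate 1, replicate 2 and the input, which are totals at peaks and not library depths.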

How the data were processed

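The deposited files gave H3K4me3 peaks of 2 ChIP libraries and 1 input library. The authors mapped read pairs to mm10 with BWA and Stampy, dropped improper pairs, duplicates and pairs with no confidently placed read, and called peaks from the pair of replicates together, with the input as control. The fragment counts at each narrow peak centre were deposited without normalization. The deposited enrichment is a ratio to nearby background coverage that the authors fitted by maximum likelihood, on a scale where 0 means no enrichment. The deposited p-value is the authors' likelihood ratio test, with very small values written as 0. Narrow peaks had p under 1e-06 and lay at least 1 kb apart. Broad peaks (bins of 100 bp, p under 1e-05) and PRDM9-independent regions were deposited as positions. The submitters' processing notes name BWA, SAMtools and bedtools.

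Peaks were joined to GENCODE vM21 starts within 1000 bp. Replicates were compared at all 101978 narrow peaks by an exact binomial test. Its recovery of changed peaks was tested on simulated data. Words of 51 bases were counted on both strands of 21 chromosomes. RefSeq promoters were matched by symbol. C2H2 fingers were counted in translated GENCODE models as C, 2 to 4 residues, C, 12 residues, H, 3 to 5 residues, H. Named genes are those with the 10 highest and 10 lowest start enrichments, no start peak, a PRDM9-dependent start peak, the most or strongest body peaks, the widest broad peaks, a replicate difference or a shared start. The shown sequences were picked after the values were seen. The genes and lists were chosen with earlier results of these data known. Scripts ran in Python 3.11.15 with pandas 2.3.3 and numpy 2.4.6, tests in scipy 1.17.1 and plots in matplotlib 3.10.9.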

Additional observations from a re-analysis of the deposited data

How the results depend on the processing

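Of 63 alternatives over 9 results, 55 left the value within 1.5 times (counts and rates) or within the spread between replicates (medians), and 8 moved it. Requiring a deposited p under 1e-10 lowered the genes with a PRDM9-dependent start peak from 13 to 7 and the body peaks per 100 kb from 2.36 to 1.57, and raised the median start enrichment from 23.9 to 28.2. Requiring both replicates above the input left 6 genes with a PRDM9-dependent start peak and a median enrichment of 28.8. Leaving out a replicate gave 7 genes (without replicate 2) to 9 genes (without replicate 1), and medians of 20.5 to 23.6 from the fragment ratio of the remaining library. The replicate difference at Zfp963 was the only call and fell to 0 with quasi-binomial noise, under which 229 of all narrow peaks remained called, against 788. The causes were not tested. The 41 genes with a PRDM9-independent start peak stayed between 40 and 42 under every alternative run. No paired analysis was possible because there is only 1 input library, which can pair with a single ChIP library by number. The moved values include the median start enrichment and the density of body peaks, most of which lay away from starts. Apart from the replicate call, the moved counts of genes concern PRDM9-dependent start peaks. Where such a peak was a gene's strongest, the medians were 14 and 17 ChIP fragments over 19 in the input.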
